A study of Homo sapiens with 6 samples.

Results

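The genes described here are MYC and MYCN, their dimerization partner MAX, the antagonists MXD1, MXD4, MXI1 and MNT, and ODC1, a long-known MYC target that encodes ornithine decarboxylase. Every probe set annotated to one of these 8 genes was taken, by current symbol or older alias, which gave 16 of the 22215 probe sets tested and 8 of the 11964 genes they name. MAX had 5 probe sets, MYCN and MXD4 had 3 each, and each of the other 5 genes had 1. The 3 MXD4 probe sets are annotated both to MXD4 and to MIR4800, a microRNA gene, and are given under MXD4 with that limit. Expression was compared between WI-38 cells overexpressing RASv12, labelled senescent, and wild-type WI-38 cells, labelled growing, with 3 samples and 3 arrays in each group. WI-38 is a normal diploid fibroblast strain from human fetal lung, and RASv12 is a constitutively active RAS whose parent gene the labels do not name. All cells were kept at 3% oxygen, and retroviral transfer is described without saying whether the control cells received an empty vector. The labels give Cy3 for RASv12 samples and Cy5 for control samples, so dye and group cannot be told apart. Nothing says that the samples of a group were separate cultures, so p-values measure the spread between these samples only.

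MYC is a transcription factor of the basic helix-loop-helix leucine zipper family that binds DNA as a dimer with MAX. MAX also pairs with the MXD proteins, MXI1 and MNT, which recruit SIN3 corepressors to the same E-box sites and oppose MYC. In proliferating cells MYC is known for driving ribosome production, nucleotide and polyamine synthesis and cell cycle entry, and RAS signalling through ERK is known to stabilise MYC protein. Ornithine decarboxylase makes putrescine, the first step of polyamine synthesis.

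The E-box CACGTG, the site that MYC and MAX dimers prefer, was looked for in the RefSeq promoter windows of GRCh38.p14, each of which spans 250 bases before to 50 bases after a listed start. The motif reads the same on both strands. Of 35116 windows in the table, 7.26% held it, and 0.664% held it at least 2 times. Windows were matched for 7 of the 8 genes, 11 windows in all, and 3 windows of 3 genes held the motif. They are shown because they belong to ODC1 and to a pair of the MAX-binding antagonists, with the E-box in capitals and each sequence read 5′ to 3′ on the minus strand.
ODC1, chr2:10447983-10448061: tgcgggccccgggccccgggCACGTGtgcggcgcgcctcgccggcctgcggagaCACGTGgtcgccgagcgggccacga
MXD4, chr4:2262322-2262359: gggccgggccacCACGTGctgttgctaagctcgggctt
MNT, chr17:2401228-2401273: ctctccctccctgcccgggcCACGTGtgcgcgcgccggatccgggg
In ODC1 both E-boxes lay at its second listed start, with first bases at -29 and 6 from that start, and its other window held none. The E-box began at -238 in MXD4 and at -193 in MNT. The windows of MYCN, MXD1, MXI1 and MAX did not hold these letters, which says nothing about binding elsewhere.

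Values are deposited signal intensities, on a linear scale, and log2 changes are RASv12 minus control after log2(value + 16) and quantile normalization. A change was called at an adjusted p under 0.05 from limma, adjusted by Benjamini-Hochberg over the whole table of 22215 probe sets, and errors of log2 changes are standard errors with n = 3 samples per group. Intensities at or under 27.98, the brightest of 27 control probe sets for bacterial transcripts, were treated as not above background. Median intensity per array ran from 26.1 to 33.5 in RASv12 samples and from 29.8 to 31.7 in control samples, and 48.6% to 54.1% of the probe sets on an array exceeded those controls. HRAS, used to check the labels, had a mean intensity of 853 ± 123 in RASv12 samples and 215 ± 23.0 in control samples (SD, n = 3 each). All 12 fibroblast markers lay above background on all 6 arrays, 9 of them fell, and their summed intensity ran from 10499 to 11812 in RASv12 samples and from 22341 to 24971 in control samples. Of 6 epithelial markers 1, KRT18, lay above background on all 6 arrays, and of 5 endothelial and 4 leukocyte markers none did. Summed over each list, RASv12 samples reached from 152 to 191 for epithelial, 47.2 to 99.8 for endothelial and 33.6 to 77.2 for leukocyte markers, against 199.9 to 215, 102 to 128 and 29.5 to 58.0 in control samples. The part of these lists in the results below was not tested.

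MYC and ODC1 were both higher in RASv12 cells, MAX was called higher on 3 of its 5 probe sets, and MXD4 was lower on all 3. Across the 16 probe sets 5 were called up and 3 down, or 8 in all, against 24.3% of all probe sets tested (11.3% up and 13% down). With the arrays scaled to their spiked hybridization controls, 8 were called up and 2 down. That scaling called 22.5% of all genes up and 8.58% down on their brightest probe sets. Its share over all probe sets is not given here. Probe sets of 1 gene share transcripts, so the counts over the 16 probe sets are not independent. On the brightest probe set of each gene, 3 of the 8 genes were called, against 27.8% of all genes.

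MYC, the network's main activator, had intensities of 426, 423 and 329 in RASv12 replicates 1 to 3, against 97.1, 118 and 104 in control replicates 1 to 3. All RASv12 samples lay far above all control samples, and RASv12 replicate 3 was the lowest of its group. Mean intensity was 392 ± 55.3 in RASv12 samples and 106 ± 10.7 in control samples (SD, n = 3 each). MYC rose by 1.74 ± 0.13 on the log2 scale, a 3.34-fold change (95% interval of the log2 change 1.44 to 2.04, adjusted p = 1.7e-04). It remained called under all 15 alternatives run on single probe sets, with log2 changes from 1.42 to 2.04. In these bulk RNA samples, a change in the number of cells that express a gene and a change in RNA per cell cannot be told apart.

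MYCN, the paralog known from neural tissue and neuroblastoma, was not above background on any array. Over its 3 probe sets the highest intensity was 4.63 in RASv12 samples and 4.11 in control samples. The groups overlapped on each of them, and adjusted p ran from 0.75 to 0.84. No fold is given for MYCN.

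**Figure D1:**
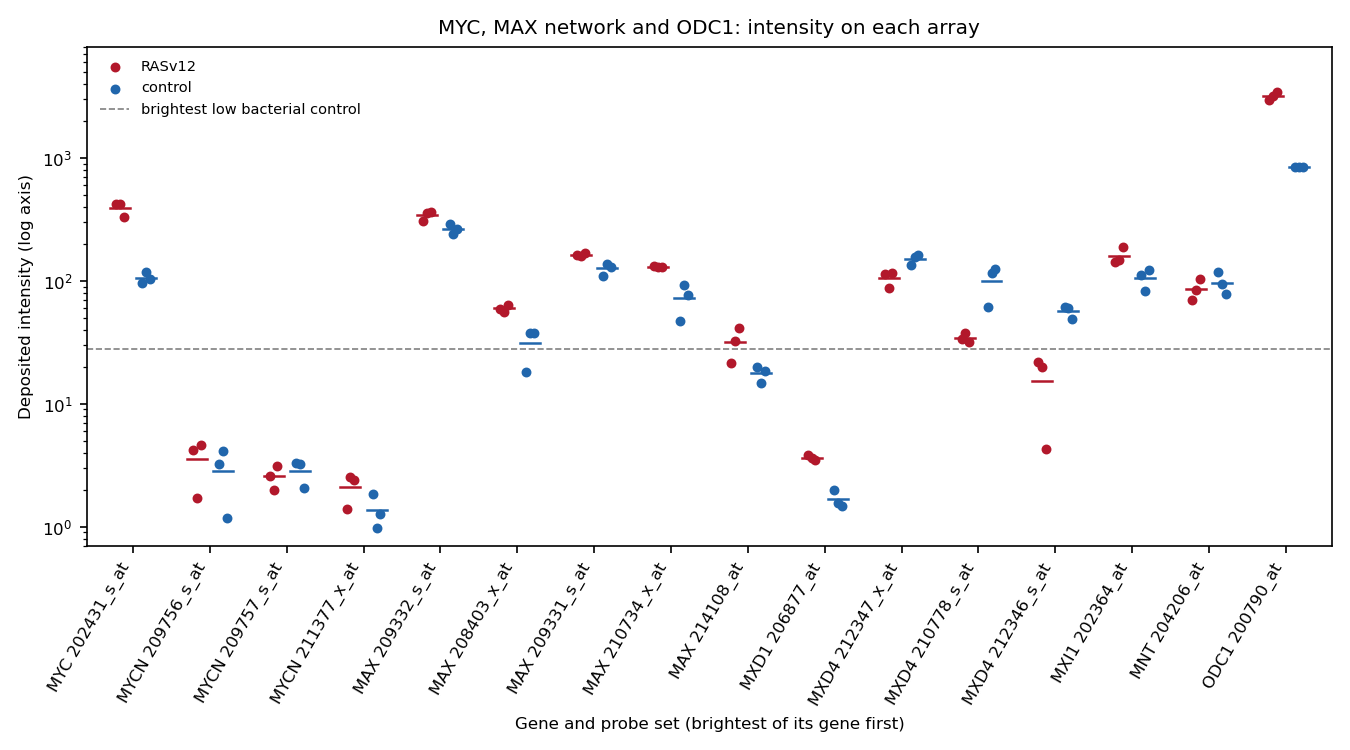
Deposited intensity (log axis) of each of the 16 probe sets on each array, RASv12 samples in red to the left of control samples in blue, with bars at the group means and a dashed line at the brightest low bacterial control (27.98). MYC and ODC1 separate widely, MYCN and MXD1 lie under the line on all 6 arrays, and control replicate 1 is the lowest control point for MAX on 208403_x_at and 210734_x_at.

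MAX, the shared dimerization partner of MYC and its antagonists, was higher in every RASv12 sample than in any control sample on all 5 of its probe sets. Groups did not overlap on 38.1% of all probe sets either, and the 5 share transcripts. On 214108_at the samples nearest each other, at 21.3 (RASv12) and 20.1 (control), were both not above background. Its brightest probe set, 209332_s_at, gave 307, 357 and 362 in RASv12 replicates 1 to 3, against 288, 243 and 264 in control replicates. The gap between the groups was small there, and the log2 change of 0.32 ± 0.12 (95% interval 0.036 to 0.61) did not pass, with adjusted p = 0.10. The next in brightness, 209331_s_at, gave 162, 161 and 167 in RASv12 replicates and 110, 138 and 131 in control replicates, with a log2 change of 0.36 ± 0.11 and adjusted p = 0.051.

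The other 3 MAX probe sets were called up. On 210734_x_at the intensities were 132, 129 and 130.1 in RASv12 replicates and 47.4, 92.3 and 76.8 in control replicates, with a log2 change of 0.81 ± 0.19 and adjusted p = 0.025. On 208403_x_at they were 59.5, 55.7 and 64.2 in RASv12 replicates and 18.0, 37.7 and 37.7 in control replicates, with a log2 change of 0.78 ± 0.20 and adjusted p = 0.031. Control replicate 1 stood lowest on both, and on 208403_x_at it was not above background. It also had the lowest ratio of 5′ to 3′ signal for ACTB, 0.71, against 0.89 to 0.96 on the other arrays. The part of this ratio in the MAX values was not tested. Without control replicate 1 the log2 change was 0.60 (adjusted p = 0.018) on 210734_x_at and 0.54 (adjusted p = 0.017) on 208403_x_at. Both calls ended when any 1 RASv12 replicate was left out (adjusted p from 0.062 to 0.078), and the first also ended without control replicate 3 (adjusted p = 0.059). With a pseudocount of 1 neither passed (adjusted p = 0.059 and 0.076). The name ending _x_at marks probe sets whose probes may also bind other transcripts.

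The dimmest MAX probe set, 214108_at, gave 21.3, 32.6 and 41.3 in RASv12 replicates and 20.1, 14.8 and 18.3 in control replicates. All control samples and 1 RASv12 sample lay within the low controls, so MAX was at least 1.09-fold higher there (adjusted p = 0.032). Leaving out any 1 sample other than RASv12 replicate 1 ended that call (adjusted p from 0.070 to 0.10), as did the values as deposited (adjusted p = 0.090) and an intensity trend (adjusted p = 0.081). The mean of all 5 probe sets changed by 0.55, with adjusted p = 0.0078 over genes. MAX was thus called on the mean of its probe sets and not on its brightest one.

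Among the antagonists, MXD4, which is known from differentiating cells and encodes a SIN3-recruiting partner of MAX, was lower in RASv12 cells on all 3 probe sets. Its brightest, 212347_x_at, gave 113, 87.0 and 116 in RASv12 replicates, against 136, 156 and 162 in control replicates. The groups did not overlap, and MXD4 fell by 0.44 ± 0.13 in log2 units (adjusted p = 0.047). That call was close to the threshold and ended when any 1 of the 6 samples was left out (adjusted p from 0.055 to 0.14) and with scaling to the hybridization controls (-0.17, adjusted p = 0.45). The mean of the 3 probe sets changed by -0.92, with adjusted p = 0.0034 over genes.

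The other MXD4 probe sets moved further. On 210778_s_at intensities were 33.4, 37.4 and 31.8 in RASv12 replicates and 61.2, 116 and 124 in control replicates. Control replicate 1 was again the lowest control sample, still above each RASv12 sample. MXD4 fell there by 1.12 ± 0.24 on the log2 scale (adjusted p = 0.016), and by 1.41 without control replicate 1 (adjusted p = 0.0022). Leaving out RASv12 replicate 3, control replicate 2 or control replicate 3 ended the call, with adjusted p = 0.052, 0.059 and 0.058. On 212346_s_at intensities were 21.8, 19.8 and 4.30 in RASv12 replicates, all within the low controls, and 61.2, 60.3 and 48.9 in control replicates. MXD4 was at least 2.02-fold lower on it (adjusted p = 0.019), and leaving out any 1 control replicate ended the call (adjusted p from 0.053 to 0.065), as did a pseudocount of 1 (adjusted p = 0.089). With scaling to the hybridization controls both of these probe sets were still called, at -0.90 (adjusted p = 0.023) and -1.07 (adjusted p = 0.019).

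MXI1, a MAX-binding repressor that is also induced by hypoxia, stood at the threshold. Its intensities were 142, 149 and 190.3 in RASv12 replicates, against 113, 82.6 and 122 in control replicates. The groups did not overlap. The log2 change of 0.58 ± 0.17 (95% interval 0.17 to 0.98) had adjusted p = 0.051 and did not pass. It passed with median centring (0.57, adjusted p = 0.028), with scaling to the hybridization controls (0.84, adjusted p = 0.015), without the dimmest 25% or 50% of probe sets (adjusted p = 0.034 and 0.019) and with an intensity trend in the spread (adjusted p = 0.036).

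MNT, a broadly expressed MAX-binding repressor, gave 69.5, 84.5 and 103 in RASv12 replicates and 118, 93.9 and 78.6 in control replicates. The groups overlapped, and the log2 change of -0.086 ± 0.17 had a 95% interval of -0.48 to 0.31 (adjusted p = 0.78), with a sign that turned to 0.14 when arrays were scaled to the hybridization controls. MXD1, an antagonist of terminally differentiating cells, lay within the low controls on all arrays, at 3.81, 3.65 and 3.47 in RASv12 replicates and 1.99, 1.55 and 1.47 in control replicates. Its groups did not overlap, as was so for 38.1% of all probe sets and for 12 of these 16, and the adjusted p was 0.29. With a pseudocount of 1 in place of 16 MXD1 did pass (0.74, adjusted p = 0.047), and no fold is given since both groups were within the low controls.

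**Figure D2:**
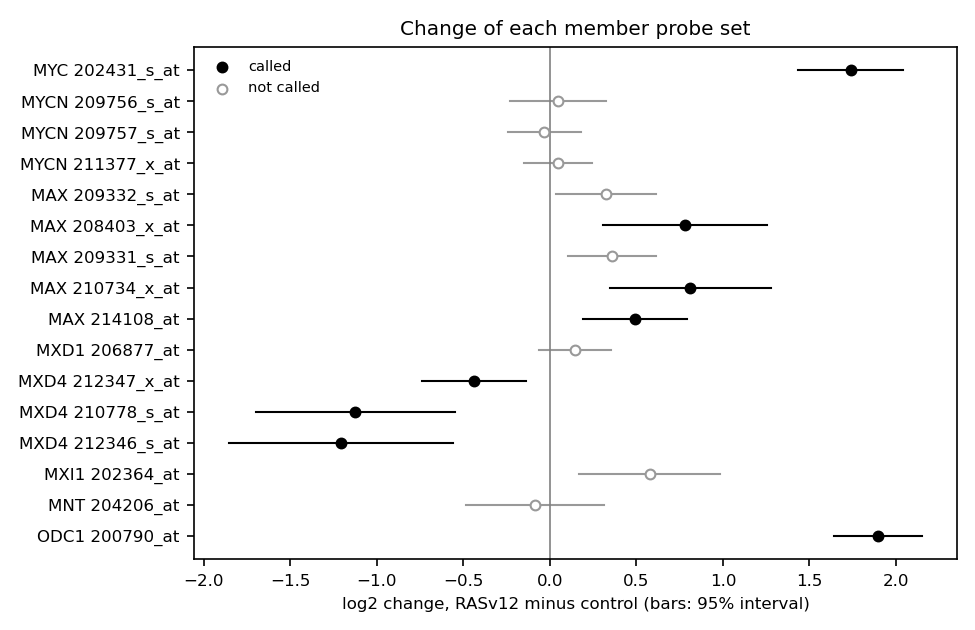
Log2 change, RASv12 minus control, of each of the 16 probe sets with its 95% interval (n = 3 samples per group), filled where adjusted p was under 0.05. MYC (1.74) and ODC1 (1.90) stand apart on the right, and the 3 MXD4 probe sets lie on the left.

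ODC1, the rate-limiting enzyme of polyamine synthesis, was the member with the largest rise on its single probe set. Intensities were 2968, 3167 and 3416 in RASv12 replicates, against 837, 848 and 839 in control replicates. The control samples lay within a narrow range, and each RASv12 sample lay far above it. Mean intensity was 3184 ± 224 in RASv12 samples and 841 ± 5.62 in control samples (SD, n = 3 each). ODC1 rose by 1.90 ± 0.11 on the log2 scale, a 3.73-fold change (95% interval of the log2 change 1.64 to 2.15, adjusted p = 5.7e-05). It was called under the same 15 alternatives, at log2 changes from 1.82 to 2.23. One of its promoter windows holds the pair of E-boxes shown above. The windows of MXD4, which was lower, and MNT, which was not called, hold 1 each. The part of these sites in the values was not tested.

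Of the 8 genes, ODC1 had the highest moderated t. The 3 genes whose values over the 6 arrays were most like those of ODC1 were CES1, CSF3 and RSAD2, with Pearson r of 0.9991, 0.999 and 0.999 among 7619 genes above background in at least 1 group. The 6 arrays fall into 2 groups, and 1224 of those genes had r over 0.9, so this likeness describes mainly the difference between the groups. CES1, a carboxylesterase, had a log2 change of 2.98, CSF3, a granulocyte growth factor, 5.43, and RSAD2, an interferon-induced antiviral protein, 2.34.

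Beside ODC1, the polyamine genes SAT1, AMD1, SMOX, MTAP and EIF5A2 rose and AZIN1 fell. These were the 6 called among 19 measured, the median log2 change of the 19 being 0.23, against 13% of all genes up, 14.9% down and a median of 0.020 over all genes. Scaled to the hybridization controls, 7 were up and 1 down, against 22.5% of all genes up and 8.58% down, their median being 0.52 against 0.20 for all genes. SAT1, which acetylates spermidine and spermine for export or breakdown, gave 1713, 1557 and 2316 in RASv12 replicates and 262, 193 and 248 in control replicates. SAT1 rose by 2.87 ± 0.20 on the log2 scale (adjusted p = 1.5e-04), and its other 2 probe sets rose by 2.69 and 3.01. That change was larger than the one of ODC1 in log2 size, a difference between the genes that was not tested.

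AMD1, which encodes the decarboxylase that supplies the aminopropyl groups for spermidine and spermine, gave 343, 363 and 338 in RASv12 replicates and 149, 170.2 and 158 in control replicates. It rose by 1.05 ± 0.091 (adjusted p = 3.6e-04), and by 0.62 on its other probe set (adjusted p = 0.0077). SMOX, which oxidises spermine, rose by 1.07 ± 0.14 (adjusted p = 0.0023) on the brighter of its probe sets, and the dimmer one lay within the low controls in both groups. MTAP, which salvages the by-product of spermidine and spermine synthesis, was at least 2.42-fold higher on deposited values (2.32-fold in the fit, adjusted p = 0.023). Of its 5 probe sets 3 were called up. EIF5A2, one of the factors that carry the spermidine-derived amino acid hypusine, was at least 1.39-fold higher (adjusted p = 0.043). The MTAP call ended without RASv12 replicate 1 or 2 and with a pseudocount of 1. The EIF5A2 call ended without any 1 sample other than control replicate 3, with the values as deposited, with a pseudocount of 1 and with an intensity trend. MTAP and EIF5A2 were named after their values were seen.

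AZIN1, an antizyme inhibitor that protects ornithine decarboxylase from degradation, was the only one of these genes called down on its brightest probe set. AZIN1 intensities were 166, 179 and 173 in RASv12 replicates, against 394, 389 and 401 in control replicates. AZIN1 fell by 1.13 ± 0.085 on the log2 scale (adjusted p = 2.0e-04), and by 0.62 on a second probe set (adjusted p = 0.0096), while a dim probe set of it did not pass. OAZ1, the antizyme that AZIN1 binds, had intensities of 2426, 2305 and 2389 in RASv12 replicates and 2503, 2338 and 2384 in control replicates, a log2 change of -0.053 with a 95% interval of -0.27 to 0.16 (adjusted p = 0.75), and of 0.32 (adjusted p = 0.058) with scaling to the hybridization controls. OAZ2, a second antizyme, did not pass on its brightest probe set (0.071, adjusted p = 0.83) and was called down on its other one (-0.76, adjusted p = 0.0033). Spermidine synthase SRM had 0.25 ± 0.085 with adjusted p = 0.079, and was called up at 0.60 (adjusted p = 0.0040) with that scaling. Spermine synthase SMS had -0.038 (adjusted p = 0.93), and 0.31 (adjusted p = 0.31) with that scaling. OAZ1, OAZ2, SRM and SMS were named after their values were seen.

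**Figure D3:**
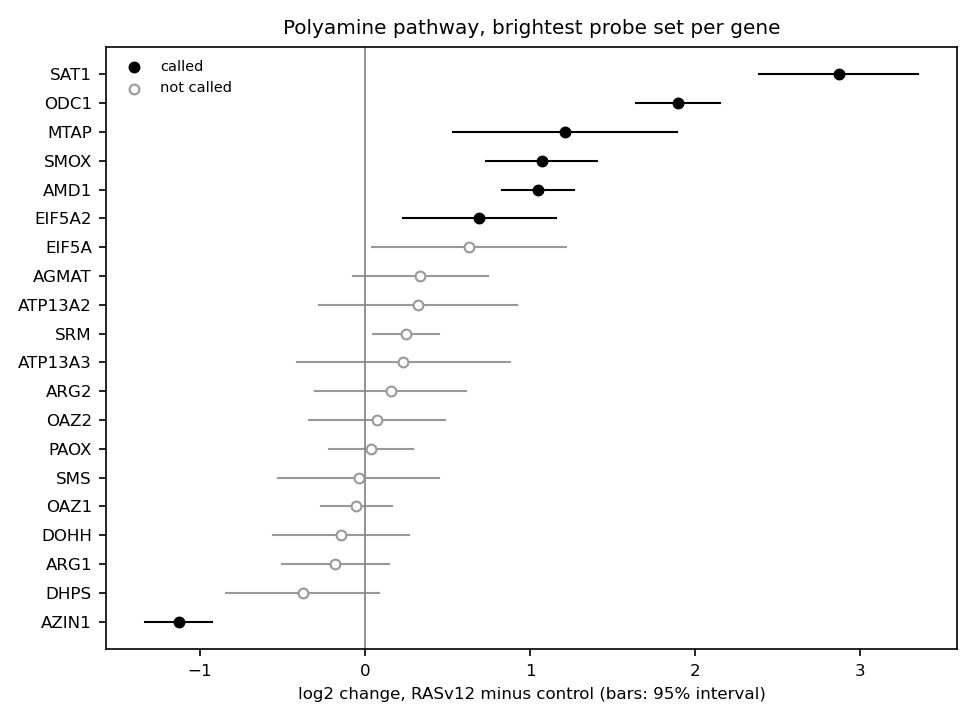
Log2 change, RASv12 minus control, of ODC1 and 19 other polyamine genes on their brightest probe sets, with 95% intervals (n = 3 samples per group) and filled points where adjusted p was under 0.05. SAT1 (2.87) and ODC1 (1.90) lie highest, AZIN1 (-1.13) lies lowest, and 13 genes did not pass.

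Of 6 further members of the extended network, 1 rose and none fell in the limma fit, beside 13% of all genes called up and 14.9% down. At an unadjusted limma p under 0.05, a looser cut, there were 2 up and 0 down. The share of all genes at that cut is not given here. MLX, which pairs with MLXIP and MLXIPL in the branch of the network that senses nutrients and also binds MXD1, MXD4 and MNT, gave 396, 338 and 336 in RASv12 replicates and 155, 190.5 and 183 in control replicates. MLX rose by 0.94 ± 0.11 (adjusted p = 0.0014), with a call on each of its 4 probe sets. MXD3, MLXIPL and MYCL lay within the low controls in both groups by their means, and MLXIP (0.35, adjusted p = 0.089) and MGA (-0.10, adjusted p = 0.76) did not pass. Scaled to the hybridization controls, MLXIP was called up at 0.55 (adjusted p = 0.032) and MGA stood at 0.11 (adjusted p = 0.61).

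Among 12 measured cofactors and corepressors of the network, limma called 2 down and 0 up, and their median log2 change was -0.052. Over all genes 27.8% were called in either direction. At an unadjusted limma p under 0.05 the list had 3 down and 0 up, without a share of all genes at that looser cut. BIN1, which binds and restrains MYC, gave 96.7, 90.0 and 88.5 in RASv12 replicates and 188, 170.1 and 215 in control replicates. BIN1 fell by 0.91 ± 0.12 (adjusted p = 0.0020), with 4 of its 5 probe sets called down. TRRAP, a scaffold of the histone acetyltransferase complexes that MYC recruits, fell by 0.72 ± 0.13 (adjusted p = 0.0089) on its brightest probe set. Once arrays were scaled to the hybridization controls, TRRAP was at -0.45 (adjusted p = 0.095). Under that scaling the list had 1 up and 1 down, against 22.5% of all genes up and 8.58% down. The dimmer TRRAP probe set did not pass.

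Of 11 measured genes whose products act on MYC protein, 4 were called down and 2 up. Over all genes 14.9% were called down and 13% up. The list's median log2 change was -0.17, against 0.020 for all genes. With scaling to the hybridization controls 4 were down and 3 up, against 8.58% of all genes down and 22.5% up. The list's median was then 0.11, against 0.20 for all genes. AURKA, a mitotic kinase known to stabilise MYCN protein, fell by 1.98 ± 0.12 (adjusted p = 8.9e-05), and SKP2, a ubiquitin ligase subunit for MYC, by 1.31 ± 0.10 (adjusted p = 2.2e-04). Both genes are also known as cell cycle genes. The other 2 probe sets of SKP2 did not pass. PLK1, another mitotic kinase, was at least 3.21-fold lower on deposited values (2.81-fold in the fit, adjusted p = 0.0011). PIM1, a kinase that phosphorylates MYC, was at least 2.37-fold lower on deposited values (2.14-fold in the fit, adjusted p = 4.2e-04). GSK3B, which marks MYC for degradation, rose by 0.70 ± 0.14 (adjusted p = 0.013), and lost its call without control replicate 3. STUB1, a ubiquitin ligase, rose by 0.36 ± 0.095 (adjusted p = 0.033), and lost its call under 8 of the alternatives run.

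Genes widely used as MYC-activated targets were for the most part not called, which also held for all genes, of which 27.8% were called. Calls were made for 10 of 29 measured genes, 9 up and 1 down, against 13% of all genes up and 14.9% down, and the median log2 change was 0.063, against 0.020 for all genes. Scaling to the hybridization controls gave 16 up and 0 down and a median of 0.41, against 22.5% of all genes up, 8.58% down and a median of 0.20. With that scaling 19 were up and 0 down at an unadjusted limma p under 0.05, without a share of all genes at that looser cut. TFRC, the transferrin receptor, rose by 0.94 ± 0.10 (adjusted p = 9.3e-04), PPAT, the first enzyme of purine synthesis, by 0.83 ± 0.098 (adjusted p = 0.0014), the cap-binding factor EIF4E by 0.68 ± 0.10 (adjusted p = 0.0038), and NOLC1, a nucleolar phosphoprotein, by 0.84 ± 0.13 (adjusted p = 0.0049). NOLC1 was called up on all 3 of its probe sets, TFRC on both, PPAT on 1 of 2 and EIF4E on 1 of 3. The EIF4E call ended on the mean of its probe sets. IMPDH2, an enzyme of guanine nucleotide synthesis, fell by 0.48 ± 0.12 (adjusted p = 0.031), a call lost once arrays were scaled to the hybridization controls (-0.15), with median centring, with a pseudocount of 1 and without RASv12 replicate 2 or 3 or control replicate 1 or 3. The nucleolar proteins NCL (0.15, adjusted p = 0.48), NPM1 (0.015, adjusted p = 0.95) and FBL (-0.17, adjusted p = 0.24), chosen after their values were seen, did not pass. With scaling to the hybridization controls NCL (0.52, adjusted p = 0.033) and NPM1 (0.39, adjusted p = 0.041) were called up, and FBL stood at 0.18 (adjusted p = 0.22). In this list 13 of the 26 genes with a promoter window held CACGTG, against 8.77% of all genes in that table, and lists of MYC targets are chosen in part for such sites.

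Of 16 genes reported as repressed by MYC, 8 were called down and 3 up, against 14.9% of all genes down and 13% up. Their median log2 change was -0.46, against 0.020 for all genes. With scaling to the hybridization controls 7 were down and 3 up, against 8.58% of all genes down and 22.5% up. Their median was then -0.23, against 0.20 for all genes. The falls included the matrix genes COL3A1 (-4.49) and COL1A2 (-1.45), which are also fibroblast markers here, and CDKN1B (-1.34), a cell cycle inhibitor (adjusted p from 1.2e-05 to 5.5e-04). GAS1, a growth arrest gene, was at least 1.86-fold lower (adjusted p = 8.0e-04). The cell cycle inhibitor CDKN1A rose by 0.97 (adjusted p = 0.0011), and CDKN2B was called up within the low controls in both groups, though not without RASv12 replicate 2 or control replicate 3. Of the 8 genes of this list with a promoter window, none held CACGTG.

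**Figure D4:**
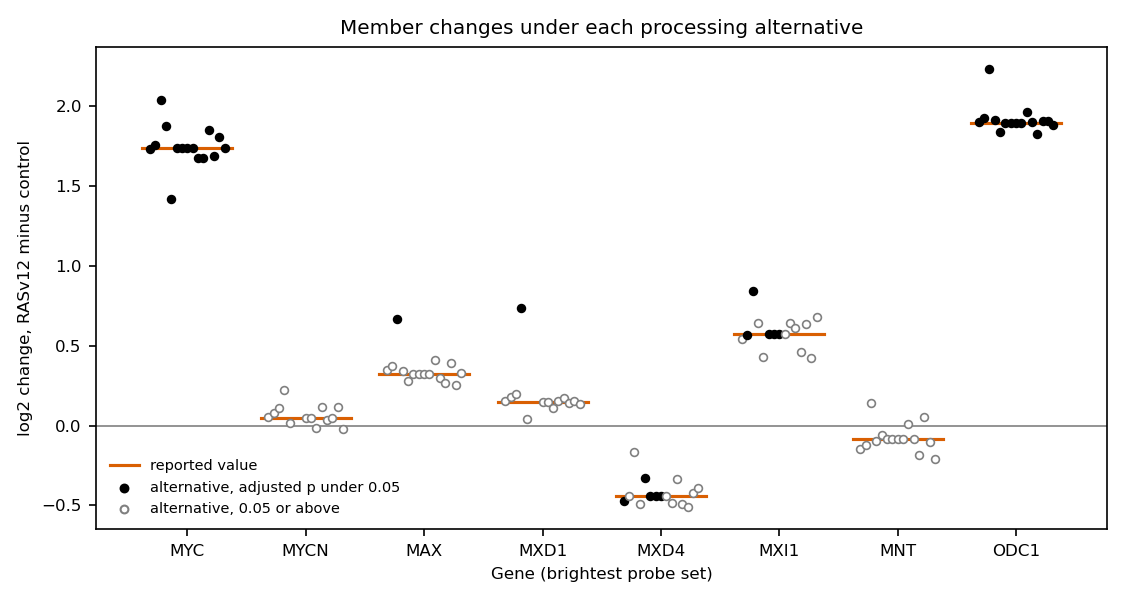
Log2 change of the brightest probe set of each gene (orange bar) and under each processing alternative other than the mean of a gene's probe sets (points, filled where adjusted p was under 0.05). MYC and ODC1 keep their calls throughout, while the points of MXD4 and MXI1 fall on both sides of the threshold. Among the points shown, MAX passes only with scaling to the hybridization controls, and MXD1 only with a pseudocount of 1.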

How the data were processed

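Each of 6 samples was read on 1 array with the identifiers of an Affymetrix human genome design. The authors deposited a linear signal intensity per probe set, made with MAS5 per the submitters' processing notes, with version and scaling target not given in the sources used here. The trimmed mean of all 6 arrays, leaving out 2% at each end, was 100.0, so arrays had been scaled before deposit, and no 2 arrays were identical. Per the labels' protocols RNA went through 2 rounds of amplification, which can compress or shift dim signals. Of 22283 probe sets, 68 controls were left out. Intensities were transformed as log2(value + 16), which understates changes of dim genes, quantile normalized and tested with limma 3.58.1 in R 4.3.3 (lmFit, eBayes), two-sided, with Benjamini-Hochberg adjustment over 22215 probe sets. No dim probe set was removed. The fit was tested on simulated data.

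In the array annotation 19065 probe sets had 1 symbol, 1043 had several and 2107 had none. Symbols were updated through RefSeq for GRCh38.p14. In lists, a gene is represented by its probe set with the highest mean intensity. Where a group's mean, or each of its 3 samples, did not exceed 27.98, the change is a bound, the brighter group's mean log2 intensity over the dimmer group's with dim values raised to that level. The genes and lists were chosen with earlier results of these data known. Named genes are all 8 members, up to 4 called genes per list with the largest moderated t, up to 2 called against the list's majority, the 3 genes most like ODC1 and HRAS. MTAP, EIF5A2 and the list genes that did not pass were named outside this rule, after their values were seen. No list was tested as a set. List genes without a probe set of their own were not analysed here.

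Same-numbered RASv12 and control samples did not deviate together (r of -0.23, -0.028 and -0.070 over probe sets), so the numbers were not taken as pairs. Alternatives were the values as deposited, median centring, scaling to 18 hybridization controls, pseudocounts of 1 and 64, filters on dim probe sets, an intensity trend, a replicate block, the mean of a gene's probe sets, and leaving out each sample.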

Additional observations from a re-analysis of the deposited data

How the results depend on the processing

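MYC and ODC1 kept direction and call under each alternative, and 134 of 154 comparisons of 16 results with alternatives other than leaving out a sample kept direction and call, or stayed within 1.5 times for counts. Scaling to the hybridization controls, which differed by -0.34 in mean log2 intensity (RASv12 minus control), gave all genes a median log2 change of 0.20 in place of 0.020. It gave MAX 0.67 (adjusted p = 0.0098), MXI1 0.84, MXD4 -0.17 and MNT 0.14, 8 member probe sets up, 16 called MYC-activated targets and 2 called further network members. Of all genes, that scaling called 22.5% up and 8.58% down. With a pseudocount of 1, MXD1 passed at 0.74 and MXD4 did not at -0.49 (adjusted p = 0.11), 1 member probe set was called down and 5 MYC-activated targets were called. With median centring MXI1 passed at 0.57 and MXD4 did not at -0.44 (adjusted p = 0.073). The mean of all probe sets gave MAX 0.55. MXI1 passed at an unmoved 0.58 there, without the dimmest 25% or 50% and with an intensity trend. With the replicate block, 3 member probe sets were called up, MAX losing its call on 208403_x_at (adjusted p = 0.059) and 214108_at (adjusted p = 0.072), MTAP, EIF5A2 and STUB1 lost their calls, and MXD4 did not pass at -0.44 (adjusted p = 0.10), and none of the other 14 results changed its call or moved by over 1.5 times; no sample correlated best with its own number.

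Leaving out 1 sample at a time gave 2 to 4 member probe sets up and 0 to 2 down. None was called down by limma without control replicate 2 or without control replicate 3, where 3 were down at an unadjusted p under 0.05 in each. It gave MXD4 from -0.51 to -0.33, MNT from -0.21 to 0.053, MYCN from -0.021 to 0.12, 6 to 9 MYC-activated targets, the lowest without control replicate 3, and 1 to 2 further network members. The share of all probe sets or genes called with 1 sample left out is not given here. Whether calls were lost more among these genes than among all genes was therefore not shown. The cause of these shifts was not tested. Signal over background limits MYCN, MXD1, MAX on 214108_at, MXD4 on 212346_s_at and, in control replicate 1, MAX on 208403_x_at.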
